A study of Mus musculus with 16 samples.

Results

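The genes described here are 39 of the 45706 gene IDs in the study's count table. They were chosen by name, as regulators of granulocyte development, granule proteins, mature neutrophil proteins and oxidase subunits, and all 39 symbols matched a row of the table. They fall into 5 steps: 4 regulators, 6 primary granule genes, 11 secondary granule genes, 14 tertiary granule and mature neutrophil genes, and 4 genes of the NADPH oxidase. RNA-seq was run on 16 libraries of mouse bone marrow cells. The labels give 2 WT and 3 Gata2 libraries of LSK cells at Day0, 3 WT and 2 Gata2 libraries of LSK cells at Day2, and 3 WT and 3 Gata2 libraries of CD45.2 bone marrow cells at Week2. LSK cells are lineage-negative, Sca-1-positive, Kit-positive marrow cells, in which blood stem cells and their first progeny are found. CD45.2 is a form of the leukocyte surface protein CD45 that is widely used to tell donor from recipient cells. The series' text describes a blood system haploinsufficient for GATA2, a transcription factor of stem cells, and the transplantation of small numbers of LSK cells into WT recipients given lethal irradiation. The allele behind the label Gata2, the strain and age of the mice, how many animals gave a library and the event from which days and weeks were counted are not stated in the labels. No label ties replicates to separate mice, so p-values cover only how these libraries vary, and part of that may be technical.

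Neutrophils mature in the marrow through successive steps, and each step makes its own set of granules. CEBPA commits progenitors to the granulocyte and monocyte path, promyelocytes then fill primary granules with myeloperoxidase and serine proteases, and CEBPE with GFI1 drives the switch to secondary granules in myelocytes. Tertiary granule enzymes, chemokine and formyl peptide receptors and the calcium-binding S100 proteins accumulate in the last steps. The mix of transcripts therefore bears on how far a population has gone. It does not settle it, since other cells may make some of them, as macrophages do Chil3. In bulk RNA, fewer cells at a step and less RNA per cell cannot be told apart.

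Library totals ran from 19618830 to 68305582 counts in LSK cells, with Day0 WT replicate 1 the shallowest, and from 176933583 to 320717267 counts at Week2. At this depth the widest 95% Wilson interval of a step's share of counts was 0.0037 percentage points to either side, for counting error only. The 8 LSK markers had counts in every group, so a count alone does not bear on the label. Their summed level was 1969 to 2414 CPM at Day0 and 1219 to 1465 CPM at Day2. Of these markers Ly6a, Procr and Flt3 were each lower in all Day2 than in all Day0 libraries. At Week2 the sum of the 8 was 89.6 to 126 CPM. There the 7 B-cell markers summed to 2287 to 4891 CPM, although the protocol in the labels describes lineage-negative cells. Here and below, sums over a marker list and levels of overlapping or copied genes are CPM of the library total, while levels of single genes are CPM after TMM scaling, which sets the libraries of a fit to a common base. Gata2 itself was not lower under its own label. It had 446 and 329 CPM in the Day0 WT libraries and 611, 752 and 677 CPM in those labelled Gata2, 291, 262 and 259 against 491 and 737 CPM at Day2, and 11.9, 14.5 and 11.1 against 27.4, 12.4 and 7.86 CPM at Week2. Its log2 difference was 0.81 at Day0, 1.18 at Day2 and 0.35 at Week2, none past the threshold, so directions below are those between labels. Day0 WT replicate 1 stood apart from the other Day0 libraries in the genes described here. Some, but not all, of the results that rest on it are given without it too.

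The 39 genes together held 0.473% to 1.14% of the counts in LSK libraries and 3.51% to 10.96% at Week2. Primary granule genes held 58.5% to 77.2% of this in 9 of the 10 LSK libraries and 42.8% in Day0 WT replicate 1. Their share of all counts was 0.203% to 0.765% in LSK libraries and 0.166% to 0.800% at Week2. Secondary granule genes held 0.0188% ± 0.0004 (SD, n = 2) of counts in Day0 WT, 0.110% ± 0.026 (SD, n = 3) in Day2 WT and 3.52% ± 1.38 (SD, n = 3) in Week2 WT libraries. In libraries labelled Gata2 they held 0.0227% ± 0.0089 (SD, n = 3) at Day0, 0.0797% ± 0.0297 (SD, n = 2) at Day2 and 2.85% ± 1.94 (SD, n = 3) at Week2. For tertiary and mature genes the shares were 0.125% ± 0.058 (SD, n = 2), 0.194% ± 0.056 (SD, n = 3) and 3.43% ± 1.73 (SD, n = 3) in WT. Those labelled Gata2 had 0.0887% ± 0.0262 (SD, n = 3), 0.121% ± 0.014 (SD, n = 2) and 2.76% ± 1.64 (SD, n = 3). The LSK and Week2 libraries are different sorted populations, so these shares are set side by side and not tested against each other. In LSK libraries Lyz2 was a large part of the tertiary and mature share. It had 25444 of 32650 counts in Day0 WT replicate 1 and 37748 of 72754 in Day2 WT replicate 1. Per kilobase of exon, the scale on which genes can be compared, Mpo led at Day2 in both genotypes with means of 1145 CPM per kb in WT and 1406 CPM per kb under the Gata2 label, followed by Elane and Lyz2. At Week2 the order was S100a9, S100a8, Ngp, Lyz2 and Camp in both genotypes, with S100a9 at means of 18905 and 15938 CPM per kb.

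**Figure D1:**
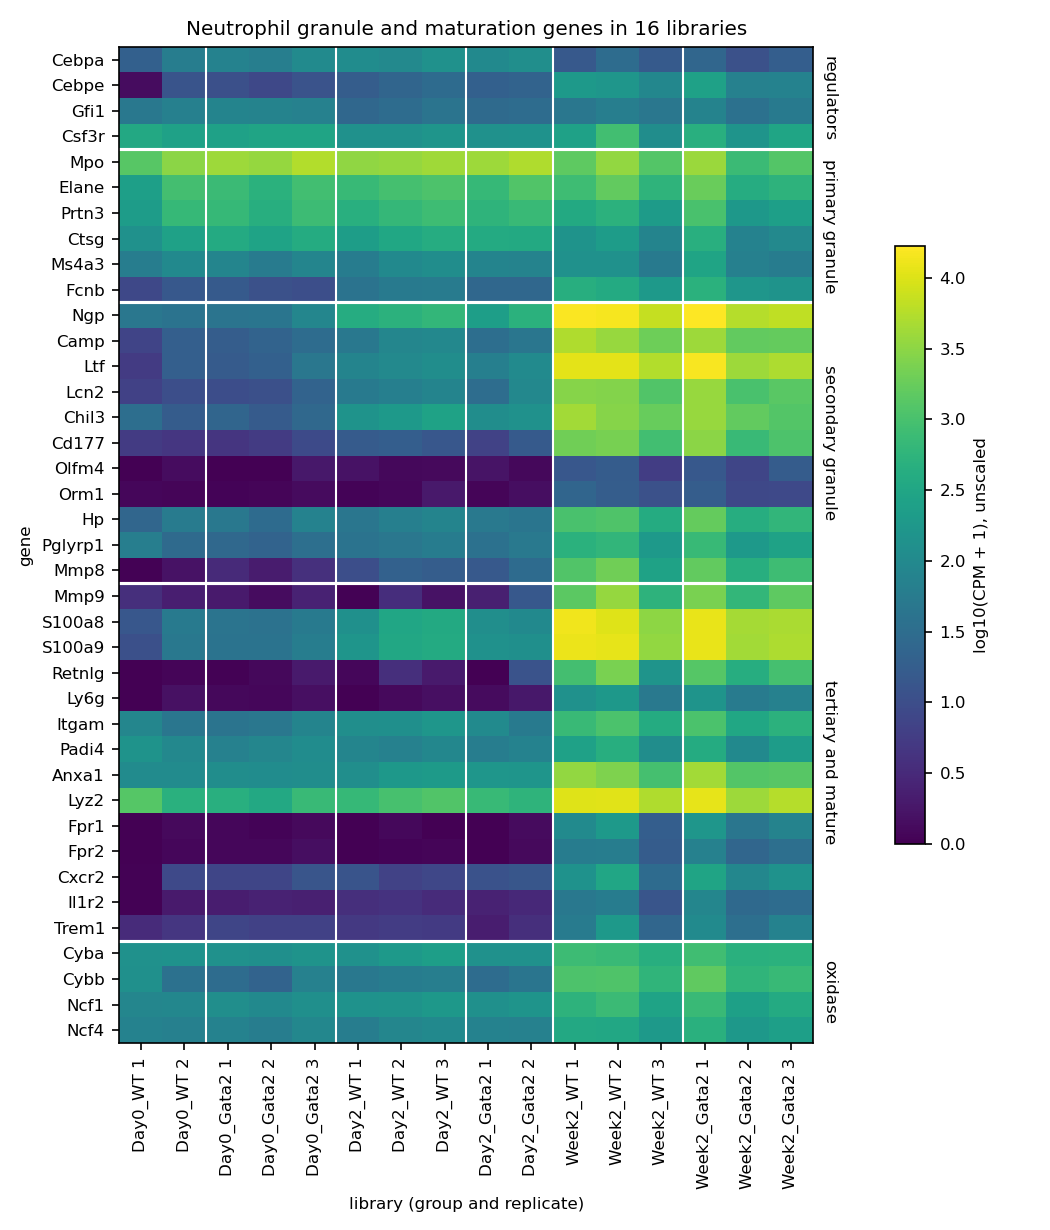
Level of each of the 39 genes (rows, by step) in each of the 16 libraries (columns, by group), as log10 of CPM + 1 without scaling. The primary granule genes other than Fcnb stay at 51.3 CPM or more in every library and Lyz2 at 353 CPM or more, while Ngp runs from 39.6 to 16816 CPM and Ltf from 4.38 to 15304 CPM, with the top of both ranges at Week2, where all 39 reached 1 CPM or more.

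**Figure D2:**
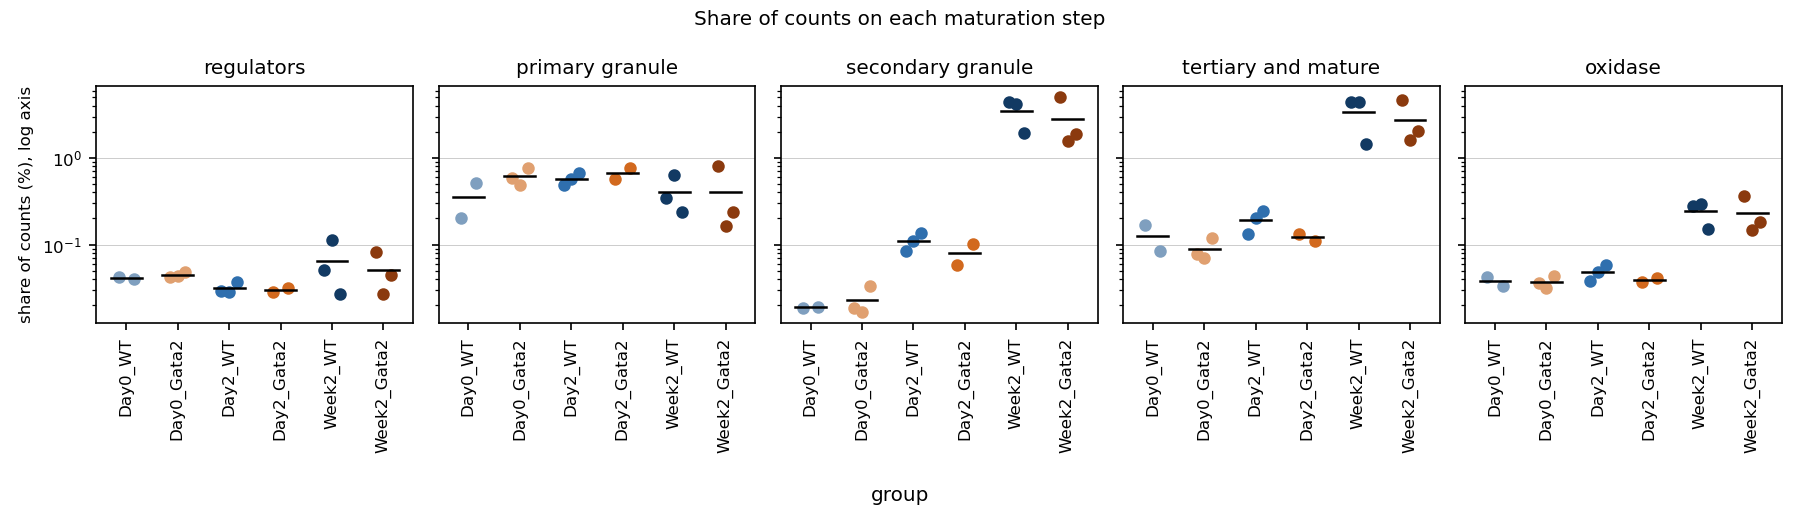
Share of each library's counts on the genes of each step (y axis, percent, log axis) by group (x axis), with 1 point per library and a line at the group mean. The secondary granule share was 0.0165% to 0.0329% at Day0, 0.0587% to 0.136% at Day2 and 1.58% to 5.08% at Week2, while the primary granule share stayed between 0.166% and 0.800%.

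The first comparison followed WT LSK cells from Day0 to Day2. Of the 11 secondary granule genes 7 passed the test, all upward (Ngp, Camp, Ltf, Lcn2, Chil3, Cd177 and Mmp8), with a median log2 fold change of 2.76 over the 11. In the tertiary and mature set 4 of 14 rose (S100a8, S100a9, Itgam and Anxa1), as did Fcnb alone among 6 primary granule genes, Ncf1 alone among 4 oxidase genes and Cebpa among the regulators, while Csf3r fell. In all, 14 of the 39 rose and 1 fell, where 11.9% of the 19162 genes tested were called higher and 17.9% lower. The median log2 fold change was 0.90 over the 39 genes and -0.11 over all genes tested. The test was edgeR's quasi-likelihood test, with p-values adjusted by Benjamini-Hochberg over all genes tested and a threshold of 0.05. All 39 genes passed its low count filter.

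Among the regulators, Cebpa had 18.1 and 56.2 CPM in the Day0 WT libraries, 72.1, 59.7 and 101 in those labelled Gata2 at Day0, 116, 100.3 and 145 in the Day2 WT libraries and 104 and 126 in those labelled Gata2 at Day2. In each genotype the Day2 libraries lay above the Day0 libraries, and the lowest value was that of Day0 WT replicate 1. Its log2 fold change in WT was 1.69 (SE 0.43, edgeR adjusted p = 0.0187), 1.07 without Day0 WT replicate 1 and 2.75 without replicate 2, and the call was lost without Day2 WT replicate 3. Csf3r, the receptor for the neutrophil growth factor G-CSF, had 339 and 249 CPM in the Day0 WT libraries, 255, 277 and 285 in those labelled Gata2 at Day0, 142, 142 and 170.1 in the Day2 WT libraries and 140.3 and 148 in those labelled Gata2 at Day2. All 5 Day2 libraries lay below all 5 Day0 libraries. The log2 fold change was -0.96 (SE 0.15, edgeR adjusted p = 0.00272) in WT and -0.92 (SE 0.16, edgeR adjusted p = 0.00783) under the Gata2 label, a fall in both. Gfi1, a repressor needed for granulocyte development, had 46.4 and 63.8 CPM in the Day0 WT libraries, 77.7, 73.6 and 68.2 in those labelled Gata2 at Day0, 26, 31.4 and 44.8 in the Day2 WT libraries and 29 and 31.5 in those labelled Gata2 at Day2. Its Day2 values lay below its Day0 values in each genotype, and the fall passed the test under the Gata2 label, at -1.27 (SE 0.25, edgeR adjusted p = 0.0135), but missed it in WT, at an adjusted p of 0.0519. Cebpe had 0.339 and 10.8 CPM in the Day0 WT libraries, 9.36, 6.79 and 10.5 in those labelled Gata2 at Day0, 17.5, 24.2 and 31.4 in the Day2 WT libraries and 18.8 and 21.9 in those labelled Gata2 at Day2. The lowest value, that of Day0 WT replicate 1, rested on 7 counts, and no change in Cebpe passed the test.

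Of the primary granule genes, Mpo, Elane, Prtn3 and Ctsg were already at high levels in Day0 LSK cells, while Fcnb was at 6.77 to 14.1 CPM. Mpo, which encodes myeloperoxidase, had 1290.2 and 2914 CPM in the Day0 WT libraries, 3909.9, 3404 and 5171 in those labelled Gata2 at Day0, 3517, 3779.6 and 4469 in the Day2 WT libraries and 4098 and 5532 in those labelled Gata2 at Day2. Day0 WT replicate 1 was the lowest of the 10 libraries, and the Day0 and Day2 libraries labelled Gata2 overlapped. Elane, Prtn3 and Ctsg, serine proteases stored with it, and Ms4a3, a membrane protein of the same stage, did not pass the test in either genotype. Their LSK levels ran from 230.4 to 1265 CPM for Elane, 204 to 867 for Prtn3, 132 to 448 for Ctsg and 54.6 to 126 for Ms4a3, with Day0 WT replicate 1 lowest for the 3 proteases. Fcnb, a lectin of the ficolin family, had 6.77 and 12.7 CPM in the Day0 WT libraries, 14.1, 9.61 and 9.16 in those labelled Gata2 at Day0, 40.8, 57 and 59.6 in the Day2 WT libraries and 25.6 and 26.1 in those labelled Gata2 at Day2. All Day2 libraries were above all Day0 libraries, and both libraries labelled Gata2 at Day2 were below the 3 WT libraries. The log2 fold change over time was 2.42 (SE 0.35, edgeR adjusted p = 0.0016) in WT and 1.24 (SE 0.31, edgeR adjusted p = 0.037) under the Gata2 label. Fcnb counts per 100 Mpo counts were 0.435 and 0.525 in Day0 WT and 1.16 to 1.51 in Day2 WT libraries. Those labelled Gata2 had 0.177 to 0.361 at Day0 and 0.472 and 0.624 at Day2.

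Of the secondary granule genes, Ngp, a cathelicidin-related granule protein, had 44.1 and 37.2 CPM in the Day0 WT libraries, 40.3, 41.9 and 81.2 in those labelled Gata2 at Day0, 426, 536 and 671 in the Day2 WT libraries and 235 and 521 in those labelled Gata2 at Day2. The lowest Day2 library was above the highest Day0 library. The log2 fold change over time was 3.75 (SE 0.46, edgeR adjusted p = 0.00079) in WT and 2.79 (SE 0.39, edgeR adjusted p = 0.00295) under the Gata2 label. Chil3, a chitinase-like lectin of neutrophils and macrophages, had 30.4 and 15 CPM in the Day0 WT libraries, 22.2, 14.5 and 25.2 in those labelled Gata2 at Day0, 155, 196 and 290.1 in the Day2 WT libraries and 122 and 142 in those labelled Gata2 at Day2. Day0 and Day2 did not overlap, and both libraries labelled Gata2 at Day2 were below the 3 WT libraries. It rose by 3.24 (SE 0.41, edgeR adjusted p = 0.000887) in WT and 2.67 (SE 0.35, edgeR adjusted p = 0.00245) under the Gata2 label on the log2 scale. Mmp8, neutrophil collagenase, had 0.0484 and 0.549 CPM in the Day0 WT libraries, 2.18, 1.05 and 2.82 in those labelled Gata2 at Day0, 9.92, 20.2 and 18.2 in the Day2 WT libraries and 14.6 and 30.1 in those labelled Gata2 at Day2. The Day0 WT values rested on 1 and 28 counts. Its log2 fold change was 5.56 (SE 0.88, edgeR adjusted p = 0.00257) in WT and 3.47 (SE 0.67, edgeR adjusted p = 0.0127) under the Gata2 label, and the WT value was 4.83 without Day0 WT replicate 1 and 8.30 without replicate 2.

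Lcn2, a lipocalin that binds bacterial siderophores, had 5.17 and 8.8 CPM in the Day0 WT libraries, 8.54, 9.36 and 20.2 in those labelled Gata2 at Day0, 54.7, 69.3 and 84 in the Day2 WT libraries and 32 and 97.1 in those labelled Gata2 at Day2. Replicate 2 of the libraries labelled Gata2 at Day2 was the highest of the 10, and replicate 1 the lowest at Day2. The rise was 3.30 (SE 0.59, edgeR adjusted p = 0.00438) in WT and 2.34 (SE 0.51, edgeR adjusted p = 0.0207) under the Gata2 label. Camp, the cathelicidin, had 6.14 and 17.1 CPM in the Day0 WT libraries, 16.1, 19.8 and 28.8 in those labelled Gata2 at Day0, 50.2, 89.4 and 99.6 in the Day2 WT libraries and 33.1 and 46.3 in those labelled Gata2 at Day2. Both libraries labelled Gata2 at Day2 lay between the Day0 libraries and the WT libraries of Day2. Camp rose in WT, at 2.76 (SE 0.50, edgeR adjusted p = 0.00466), and under the Gata2 label had 0.88 (SE 0.44, edgeR adjusted p = 0.25). Ltf, lactoferrin, and Cd177, a neutrophil surface glycoprotein, rose in WT, at 3.27 (SE 0.68, edgeR adjusted p = 0.0083) and 2.08 (SE 0.51, edgeR adjusted p = 0.0167). Their Day2 WT levels were 83.2, 103 and 126 CPM for Ltf and 16, 18 and 14.2 CPM for Cd177, against 4.16 and 17 and 4.21 and 3.39 CPM at Day0. Without Day0 WT replicate 1 and then replicate 2 the WT values were 2.58 and 4.65 for Ltf and 2.19 and 3.70 for Camp, and the call of Cd177 was lost without Day2 WT replicate 2. The other four secondary granule genes did not pass the test in either genotype. Hp and Pglyrp1 had 22.5 to 84.9 and 20.6 to 62.7 CPM in LSK libraries, and Olfm4 and Orm1 stayed at or under 0.845 and 1.02 CPM.

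In the tertiary and mature set, S100a8 and S100a9, whose products pair as calprotectin, rose in WT. S100a8 had 12.2 and 50.6 CPM in the Day0 WT libraries, 40.6, 36.2 and 52.2 in those labelled Gata2 at Day0, 139, 333 and 400.1 in the Day2 WT libraries and 125 and 107 in those labelled Gata2 at Day2. The Day2 WT libraries spread about their mean more than those labelled Gata2, and WT replicate 1 lay near the latter. The log2 fold change was 3.20 (SE 0.62, edgeR adjusted p = 0.00657) in WT and 1.43 (SE 0.54, edgeR adjusted p = 0.129) under the Gata2 label, which missed the threshold. S100a9 had 9.28 and 45.4 CPM in the Day0 WT libraries, 38.8, 37.8 and 59 in those labelled Gata2 at Day0, 166, 362 and 414 in the Day2 WT libraries and 137 and 132 in those labelled Gata2 at Day2. As with S100a8, both libraries labelled Gata2 at Day2 were below every Day2 WT library. The log2 fold change of S100a9 was 3.51 (SE 0.66, edgeR adjusted p = 0.00547) in WT and 1.57 (SE 0.55, edgeR adjusted p = 0.11) under the Gata2 label. The ratio of S100a8 to S100a9 counts stayed between 0.808 and 1.31 over all 16 libraries. Itgam, the integrin chain CD11b, had 80.9 and 41.4 CPM in the Day0 WT libraries, 40.4, 44.8 and 77.4 in those labelled Gata2 at Day0, 128, 133 and 176 in the Day2 WT libraries and 105 and 57.1 in those labelled Gata2 at Day2. It rose in WT, at 1.25 (SE 0.40, edgeR adjusted p = 0.0409), a call kept in 6 of 15 alternative fits and lost without Day0 WT replicate 2, without replicate 1 or 2 of the Day0 libraries labelled Gata2 and without any of the 3 Day2 WT libraries. The Day0 and Day2 values labelled Gata2 overlapped. Anxa1, a phospholipid-binding protein of neutrophil granules, had 103 and 102 CPM in the Day0 WT libraries, 114, 109.6 and 110.4 in those labelled Gata2 at Day0, 128, 185 and 216 in the Day2 WT libraries and 168 and 166 in those labelled Gata2 at Day2. Its rise in WT was 0.78 (SE 0.20, edgeR adjusted p = 0.0175), and the call was kept in 10 of 15 alternative fits and lost without Day0 WT replicate 1 or Day2 WT replicate 2 or 3. Leaving out Day0 WT replicate 1 and then replicate 2 gave WT values of 2.49 and 4.58 for S100a8 and 2.76 and 5.08 for S100a9.

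Fpr1 and Fpr2, receptors for formyl peptides, stayed at or under 0.355 and 0.436 CPM, and Ly6g, the surface marker of mouse neutrophils, at or under 0.907 CPM. Cxcr2, a chemokine receptor, was higher, with 0.0484 and 7.09 CPM in the Day0 WT libraries, 6.37, 6.43 and 11.4 in those labelled Gata2 at Day0, 11.9, 6.08 and 7.57 in the Day2 WT libraries and 10.6 and 13.2 in those labelled Gata2 at Day2. It rested on 1 count in Day0 WT replicate 1 and on 300 to 807 counts in the other 9 LSK libraries. Mmp9, a gelatinase of tertiary granules, had 2.61 and 1.18 CPM in the Day0 WT libraries, 0.998, 0.378 and 1.45 in those labelled Gata2 at Day0, 0.0761, 2.65 and 0.619 in the Day2 WT libraries and 1.34 and 14.5 in those labelled Gata2 at Day2. Retnlg, a resistin-like protein of neutrophils, had 0 and 0.137 CPM in the Day0 WT libraries, 0.0599, 0.239 and 0.957 in those labelled Gata2 at Day0, 0.171, 2.79 and 1.08 in the Day2 WT libraries and 0 and 11.6 in those labelled Gata2 at Day2. For both, replicate 2 of the libraries labelled Gata2 at Day2 was the highest of the 10 and well above the other library of its group, and no change passed the test. Padi4, which citrullinates histones, and Lyz2, lysozyme, had 62.6 to 138 and 338 to 1286 CPM in LSK libraries and did not pass the test. Within Day0, Lyz2 was highest in WT replicate 1, at 1230.4 CPM against 447 CPM in replicate 2. Of the oxidase genes, Ncf1, the subunit p47phox, had 82.5 and 83.9 CPM in the Day0 WT libraries, 117, 97.3 and 121 in those labelled Gata2 at Day0, 145, 154 and 192 in the Day2 WT libraries and 132 and 163 in those labelled Gata2 at Day2. Its Day2 libraries were above its Day0 libraries in both genotypes, with a log2 fold change of 0.98 (SE 0.17, edgeR adjusted p = 0.00435) in WT, a rise, and 0.40 (SE 0.17, edgeR adjusted p = 0.173) under the Gata2 label, which missed the threshold. Cyba, Cybb and Ncf4 did not pass the test, with Cyba at an adjusted p of 0.053 in WT.

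**Figure D3:**
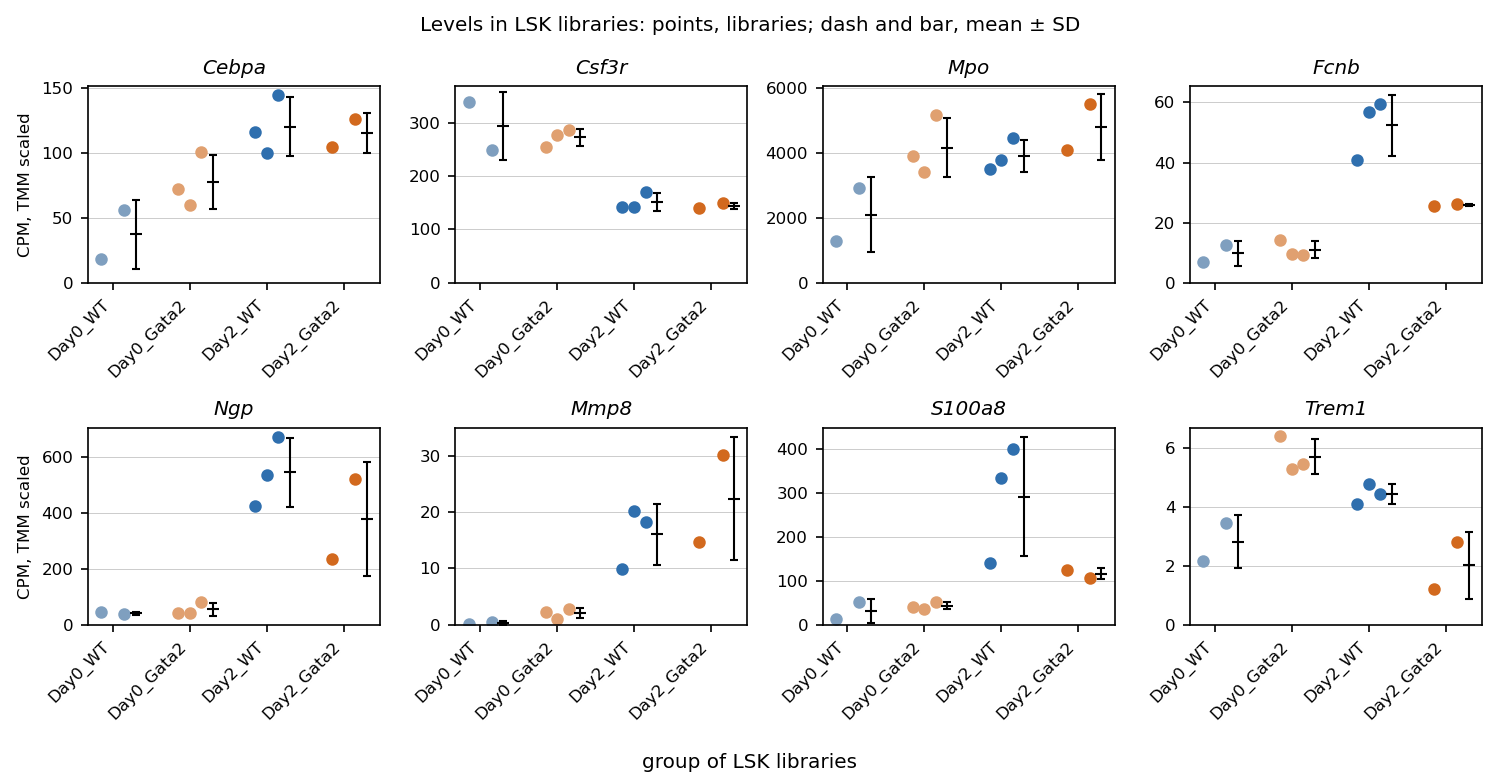
Level of 8 of the genes in the 10 LSK libraries (y axis, TMM-scaled CPM from 0; x axis, group), with 1 point per library and the mean ± SD beside them. Ngp, Mmp8 and Fcnb were higher at Day2 than at Day0 in every library, Csf3r lower, and Mpo lowest in Day0 WT replicate 1.

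Beside these rises, other marker lists moved between Day0 and Day2. Among LSK markers, 4 of 8 fell in WT and 3 of 8 under the Gata2 label, with Ly6a at 56.3 and 62.2 CPM in the Day0 WT and 22.6, 28.9 and 31.4 CPM in the Day2 WT libraries. Of 10 monocyte markers 1 rose and 2 fell in WT, and their summed level was 620 to 1369 CPM at Day0 and 1077 to 1412 CPM at Day2. Megakaryocyte markers rose in 5 of 6 cases in each genotype, from a sum of 222 to 404 CPM at Day0 to 1635 to 2225 CPM at Day2. B-cell markers summed to 63.4 to 155 CPM at Day0 and 18.1 to 29.0 CPM at Day2, with Ebf1, Pax5 and Ms4a1 without a count in Day2 WT. The erythroid sum was 80.8 to 133 CPM and then 70.6 to 93.0 CPM. Of the 8 erythroid markers 4 fell in WT and 2 under the Gata2 label, and 0 were called higher in either. T and NK markers summed to 161 to 287 CPM at Day0 and 101 to 143 CPM at Day2, and those of eosinophils, basophils and mast cells to 363 to 645 and 113 to 208 CPM. Cd3e, Cd3g, Cd8a and Gzma had no count at Day2 in either genotype, nor Slc4a1 in Day2 WT. The part of these shifts in the granule genes' rise was not tested.

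Under the Gata2 label, 5 of the 39 genes rose from Day0 to Day2 (Fcnb, Ngp, Lcn2, Chil3 and Mmp8) and 2 fell (Gfi1 and Csf3r), where 4.48% of all genes tested were called higher and 4.82% lower. Secondary granule genes held 4 of the 5 rises, with a median of 1.08 over the 11. The median over the 39 was 0.57 and that over all genes -0.07. Of the 15 calls in WT and the 7 under the Gata2 label, 6 were shared, 5 of them upward. The count under the Gata2 label depended on single libraries: it was 14 without Day0 WT replicate 1 and 12 without Day0 WT replicate 2, where 24.3% and 21.2% of all genes were called. It was 4 and 3 without replicates 1 and 2 of the Day0 libraries labelled Gata2, and 4 and 3 without replicates 1 and 2 of those of Day2, where 2.29% to 4.55% of all genes were called. The calls of Gfi1 and Mmp8 under this label were lost in each of the last 4 of these fits, that of Lcn2 in 3 of them, and that of Fcnb in 3 of them and without replicate 3 of the Day0 libraries labelled Gata2 or Day2 WT replicate 2 or 3. Without Day0 WT replicate 1 the WT median was 0.75, and without replicate 2 it was 1.94. Each of these fits leaves 1 library in the Day0 WT group.

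Whether the rise differed between genotypes was tested as the difference of the 2 changes. No gene passed, among the 39 or among all 19162 (0% called higher and 0% lower), while 1984 of all genes and 5 of the 39 had an unadjusted p under 0.05, and DESeq2 called 261 of all genes and 1 of the 39, Trem1. The log2 change was lower under the Gata2 label than in WT for 31 of the 39, with a median difference of -0.64, against -0.06 over all genes, of which 46.8% had a difference above 0. By step the median difference was -0.75 for regulators, -0.62 for primary, -0.95 for secondary, -0.43 for tertiary and mature and -0.39 for oxidase genes. This rested in part on Day0 WT replicate 1, since the median was -0.36 without it. Without Day0 WT replicate 2, which leaves replicate 1 as the only Day0 WT library, the median was -1.53 and 16 of the 39 were called, all lower under the Gata2 label. In that fit 6733 of all genes (31.1%) were called, 30.7% of them higher, and the median over all genes was -0.27. The ratio of secondary to primary granule counts was set beside this. It was 3.76 secondary per 100 primary counts in Day0 WT replicate 2 and 9.16 in replicate 1, 3.12 to 4.36 in the Day0 libraries labelled Gata2, 17.3 to 20.3 in Day2 WT libraries, and 10.2 and 13.2 in those labelled Gata2 at Day2. The Day2 groups did not overlap in this ratio, which was not tested and has no share over all genes to be read against. The secondary granule share of counts did overlap at Day2, at 0.0846% to 0.136% in WT and 0.0587% and 0.101% under the Gata2 label. Primary granule shares were 0.488% to 0.668% in WT and 0.574% and 0.765% under the Gata2 label. Most primary counts were those of Mpo, such as 280516 of 408854 in replicate 2 labelled Gata2.

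**Figure D4:**
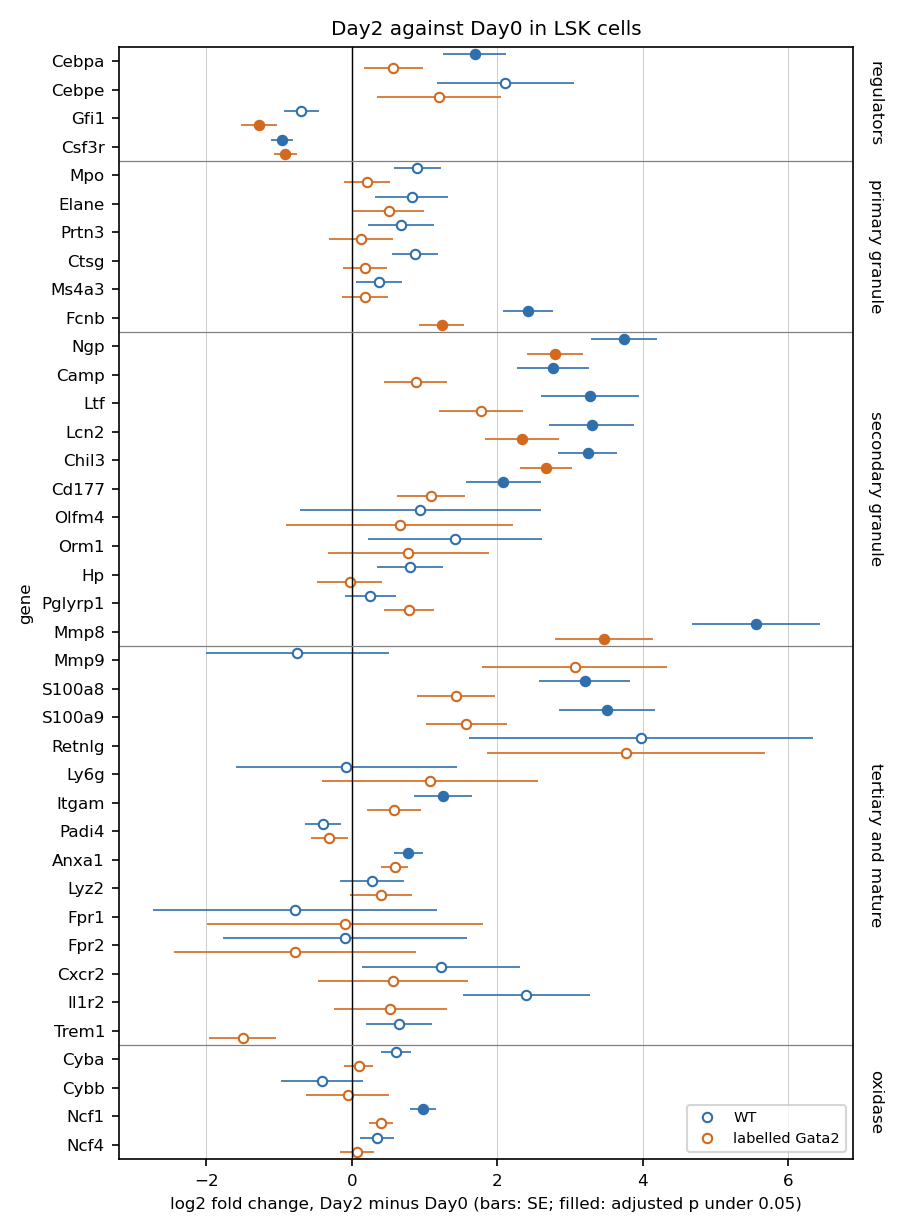
Log2 fold change from Day0 to Day2 (x axis) of each gene (y axis, by step) in WT LSK cells and in those labelled Gata2, with the SE as bars and filled points where the adjusted p was under 0.05. The rises of Ngp, Chil3, Lcn2, Mmp8 and Fcnb were called in both genotypes, and the widest bars belong to genes with few counts such as Retnlg and Fpr1.

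The 6 genes called over time in both genotypes moved the same way in each, so the start of each gene is shown, from 250 bases before to 50 after the start given by RefSeq (GRCm38.p6). The windows lie at chr2:28084829-28085128 (minus strand) for Fcnb, chr9:110419558-110419857 (plus strand) for Ngp, chr2:32387690-32387989 (minus strand) for Lcn2, chr3:106167515-106167814 (minus strand) for Chil3, chr9:7558179-7558478 (plus strand) for Mmp8 and chr4:126024409-126024708 (plus strand) for Csf3r. Each is written 5′ to 3′ along the gene's strand, and capitals mark matches, on either strand, to the letters TTGCNNAA, the core bound by C/EBP factors such as CEBPA and CEBPE.
Fcnb: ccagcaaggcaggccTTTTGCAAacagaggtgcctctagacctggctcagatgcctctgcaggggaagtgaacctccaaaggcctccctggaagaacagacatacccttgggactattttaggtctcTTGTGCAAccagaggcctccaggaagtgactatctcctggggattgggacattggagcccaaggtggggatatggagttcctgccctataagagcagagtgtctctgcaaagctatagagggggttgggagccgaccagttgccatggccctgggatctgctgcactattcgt
Ngp: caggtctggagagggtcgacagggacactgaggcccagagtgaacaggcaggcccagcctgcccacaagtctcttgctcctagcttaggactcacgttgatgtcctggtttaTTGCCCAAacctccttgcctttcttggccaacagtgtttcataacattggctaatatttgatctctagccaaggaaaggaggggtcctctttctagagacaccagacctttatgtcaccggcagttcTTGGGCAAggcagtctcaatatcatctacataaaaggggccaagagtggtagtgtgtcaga
Lcn2: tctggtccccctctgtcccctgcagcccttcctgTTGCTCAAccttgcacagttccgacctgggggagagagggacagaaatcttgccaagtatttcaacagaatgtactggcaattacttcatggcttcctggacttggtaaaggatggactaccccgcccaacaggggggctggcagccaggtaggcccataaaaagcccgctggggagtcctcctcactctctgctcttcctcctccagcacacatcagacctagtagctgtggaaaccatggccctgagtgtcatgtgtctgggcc
Chil3: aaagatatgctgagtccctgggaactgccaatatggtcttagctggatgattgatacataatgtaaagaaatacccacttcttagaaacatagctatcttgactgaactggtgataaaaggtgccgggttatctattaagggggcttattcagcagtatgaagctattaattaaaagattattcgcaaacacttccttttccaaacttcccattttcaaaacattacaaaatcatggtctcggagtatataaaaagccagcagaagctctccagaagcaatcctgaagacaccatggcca
Mmp8: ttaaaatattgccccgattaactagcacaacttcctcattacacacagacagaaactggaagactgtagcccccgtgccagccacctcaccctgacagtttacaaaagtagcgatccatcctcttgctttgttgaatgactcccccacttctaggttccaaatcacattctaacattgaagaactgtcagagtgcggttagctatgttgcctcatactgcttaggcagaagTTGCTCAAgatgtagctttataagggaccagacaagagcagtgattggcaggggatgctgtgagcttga
Csf3r: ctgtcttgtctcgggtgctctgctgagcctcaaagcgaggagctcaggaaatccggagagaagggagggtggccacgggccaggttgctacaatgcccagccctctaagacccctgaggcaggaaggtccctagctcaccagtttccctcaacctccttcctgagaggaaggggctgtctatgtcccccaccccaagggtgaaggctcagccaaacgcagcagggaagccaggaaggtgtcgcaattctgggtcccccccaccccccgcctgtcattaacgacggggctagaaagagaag

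The C/EBP letters were found in 4 of these 6 windows, with 2 matches each in Fcnb and Ngp and 1 each in Lcn2 and Mmp8, and not in the windows of Chil3 and Csf3r. Windows were found for 34 of the 39 genes, and 11 of the 34 (32.4%) held the letters, where 10.8% of all 32851 windows of this length did. Those 11 were Anxa1, Fcnb, Gfi1, Lcn2, Ltf, Ly6g, Mmp8, Ms4a3, Ngp, Retnlg and S100a9. The letters GAGGAA, a core of ETS factors such as PU.1, were in 20 of the 34 (58.8%) and in 28.3% of all windows. AGATAA, a core of GATA factors, was in 7 of the 34 (20.6%) and in 11.2% of all windows. The 34 are counted by gene, with a match in any of a gene's windows, while the share over all is by window, so these percentages differ in unit. Both strands were searched, each motif was searched on its own and matches could overlap, and a match of letters says nothing of binding. 3 of the secondary granule genes lie within a short stretch of chromosome 9 (GRCm38): Camp at chr9:109847379-109849617, Ngp at chr9:110419747-110423012 and Ltf at chr9:111019271-111042767. Prtn3 at chr10:79874476-79883174 and Elane at chr10:79886247-79888215 are neighbours on chromosome 10, and S100a8 at chr3:90668978-90670035 and S100a9 at chr3:90692632-90695721 on chromosome 3.

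Genotypes were then compared at Day0. None of the 39 genes passed the test, nor did any of the 19162 genes (0% higher, 0% lower). At an unadjusted p under 0.05 there were 2586 of all genes and 5 of the 39 (Cebpa, Mpo, Ctsg, Mmp8 and Ncf1), and DESeq2 called 448 of all genes and 1 of the 39, Mmp8. For 10 genes every library labelled Gata2 was above both WT libraries and for 0 every one was below, where 18.3% of all genes were higher without overlap and 14.2% lower. The 10 were Cebpa, Gfi1, Mpo, Ctsg, Mmp8, Anxa1, Fpr2, Il1r2, Trem1 and Ncf1, and 10 of 39 is read against that 18.3%. The median difference was 0.42 over the 39 and 0.02 over all genes. Of the 10, Mmp8 had a log2 difference of 2.57 (SE 0.78, edgeR adjusted p = 0.341), Cebpa of 1.05 (SE 0.42, edgeR adjusted p = 0.349), Mpo of 0.99 (SE 0.33, edgeR adjusted p = 0.341) and Ctsg of 0.87 (SE 0.31, edgeR adjusted p = 0.341). Ctsg had 132 and 242 CPM in the Day0 WT libraries and 374, 268 and 380.5 CPM in those labelled Gata2 at Day0. Without Day0 WT replicate 1, the differences were 0.46 for Cebpa, 0.51 for Mpo and 0.49 for Ctsg. The median over the 39 was 0.17 in that fit and 0.148 without replicate 3 labelled Gata2. The difference of Mmp8 ran from 1.88 to 5.51 over 15 alternative fits. Without Day0 WT replicate 2, 8655 of all genes (39.9%) and 19 of the 39 were called and the median was 1.499. With replicate 1 as the only WT library, the comparison is one with that library, whose spread is taken from the other groups.

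Day0 WT replicate 1 differed from the other Day0 libraries in both directions. It was the lowest of the Day0 libraries for Cebpe, Mpo, Elane, Prtn3 and Ctsg, and Cebpe, Cxcr2, Il1r2 and Mmp8 rested there on 7, 1, 1 and 1 counts. It was the highest for Lyz2, for Cybb, the oxidase subunit gp91phox, with 122 and 35 CPM in the Day0 WT libraries and 28.8, 20.4 and 68.7 CPM in those labelled Gata2 at Day0, and for Pglyrp1, a peptidoglycan-binding granule protein, with 59.1 and 26.5 CPM in the Day0 WT libraries and 25.1, 20.6 and 32.5 CPM in those labelled Gata2 at Day0. Ltf had 4.16 and 17 CPM in the Day0 WT libraries and 14.7, 18.3 and 44.6 CPM in those labelled Gata2 at Day0, and the groups overlapped. For Prtn3 the values were 204 and 643 CPM in the Day0 WT libraries and 652, 424 and 767 CPM in those labelled Gata2 at Day0, and the groups overlapped too. Its depth was the lowest of the series, at 19618830 counts, and its Ptprc level was 345 CPM against 223, 234 and 233 CPM in the libraries labelled Gata2. Markers of other cells differed there too. The 7 B-cell markers summed to 155 CPM against 63.4 to 100.3 CPM in the other Day0 libraries, with Ebf1 at 31.4 against 2.12 to 5.93 CPM and Cd79a at 43 against 9.07 to 18.9 CPM. Cd79b and Ms4a1 went the other way, at 32.2 against 36.9 to 44.5 CPM and at 0 against 0.392 to 1.06 CPM. The remaining B-cell markers were highest in Day0 WT replicate 1. The 10 monocyte markers summed to 630 CPM against 620 to 1369 CPM, but Adgre1, a macrophage surface protein, was at 33.3 against 4.6 to 13.2 CPM. Klf4 was highest there too. Ly6c2, Irf8 and F13a1 were lowest, at 53 against 91.4 to 186, 186 against 243 to 472 and 43.5 against 94.6 to 258 CPM. The remaining monocyte markers lay between. Ifitm6, of a further neutrophil list, was at 26 against 1.29 to 4.93 CPM. That list was mixed too, with Cst7, Hdc, Ltb4r1 and Wfdc21 among its genes lowest there, and Clec4e and Igsf6 among those highest. Ebf1, Cd79a, Adgre1 and Ifitm6 were picked with their values known. The part of depth and of other cells in these differences was not tested.

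At Day2 the direction of the median was the opposite, -0.18 over the 39 against -0.00098 over all genes. Again no gene passed the test (0% higher and 0% lower of 19162), with 1070 of all genes and 4 of the 39 (Fcnb, S100a8, Trem1 and Cyba) at an unadjusted p under 0.05, and 169 of all genes but 0 of the 39 called by DESeq2. Both libraries labelled Gata2 lay below all 3 WT libraries for 9 genes and above them for 0, where 11.1% of all genes were lower without overlap and 9.96% higher. The 9 were Fcnb of the primary, Camp and Chil3 of the secondary, S100a8, S100a9, Itgam, Il1r2 and Trem1 of the tertiary and mature, and Cybb of the oxidase genes. The log2 difference was -1.02 (SE 0.32, edgeR adjusted p = 0.782) for Fcnb, -1.32 (SE 0.57, edgeR adjusted p = 0.88) for S100a8 and -1.01 (SE 0.46, edgeR adjusted p = 0.893) for Camp. Mpo had 3517, 3779.6 and 4469 CPM in the Day2 WT libraries and 4098 and 5532 CPM in those labelled Gata2 at Day2, and those labelled Gata2 fell within and above the WT range. Elane had 745, 982 and 1185 CPM in the Day2 WT libraries and 696 and 1265 CPM in those labelled Gata2 at Day2, with those labelled Gata2 on either side of the WT range. Cyba, the oxidase subunit p22phox, had 144, 199 and 253 CPM in the Day2 WT libraries and 138 and 145 CPM in those labelled Gata2 at Day2, with WT replicate 1 inside the range labelled Gata2. Ms4a3 had 61.2, 106 and 126 CPM in the Day2 WT libraries and 82.6 and 81.6 CPM in those labelled Gata2 at Day2. The sign of the median rested on single libraries: it was 0.02 without Day2 WT replicate 3 and 0.05 without replicate 1 labelled Gata2, -0.31 without Day2 WT replicate 1 and -0.46 without replicate 2 labelled Gata2.

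2 of the 39 genes lay above WT without overlap at Day0 and below it at Day2, as did 2.3% of all genes, and 0 lay the other way round, as did 2.22%. Trem1, a receptor that amplifies neutrophil activation, had 2.18 and 3.47 CPM in the Day0 WT libraries, 6.41, 5.28 and 5.46 in those labelled Gata2 at Day0, 4.11, 4.78 and 4.45 in the Day2 WT libraries and 1.21 and 2.82 in those labelled Gata2 at Day2. At Day0 the libraries labelled Gata2 were all above WT, and at Day2 all below. The log2 difference was 1.01 (SE 0.46, edgeR adjusted p = 0.372) at Day0 and -1.14 (SE 0.46, edgeR adjusted p = 0.863) at Day2, and the difference of these was -2.15 (SE 0.65, edgeR adjusted p = 0.465), not past the threshold. Il1r2, the decoy receptor for interleukin 1, had 0.0484 and 0.98 CPM in the Day0 WT libraries, 1.14, 1.43 and 1.28 in those labelled Gata2 at Day0, 2.82, 3.26 and 2.54 in the Day2 WT libraries and 1.54 and 2.17 in those labelled Gata2 at Day2. It showed the same order, with a difference between the times of -1.87 (SE 1.15, edgeR adjusted p = 0.57), also not past it. The Day0 WT values of Il1r2 rested on 1 and 50 counts, and its counts may hold reads of overlapping genes, given below. Its log2 difference at Day0 was 1.24 and ran from 0.39 to 4.85 over 15 alternative fits.

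**Figure D5:**
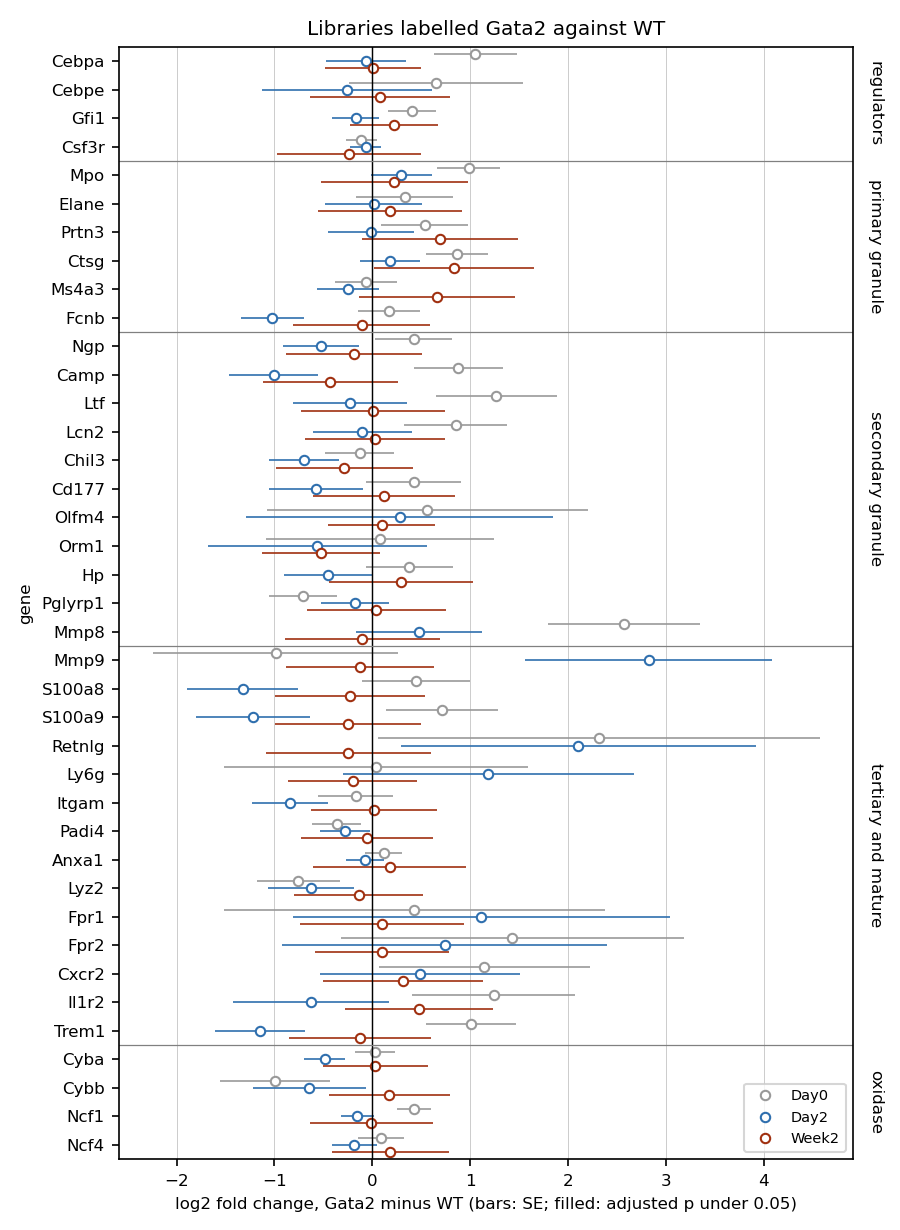
Log2 difference between libraries labelled Gata2 and WT (x axis) of each gene (y axis, by step) at Day0, Day2 and Week2, with the SE as bars. All points are open, since no gene passed the adjusted p of 0.05 at any time, and the medians over the 39 genes were 0.42, -0.18 and 0.03.

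At Week2 all 39 genes were detected at 1 CPM or more in all 6 libraries, and 7 to 21 of them exceeded 1000 CPM (9 to 19 without TMM scaling). Fpr1, near 0 in LSK cells, had 132, 165 and 13.6 CPM in the Week2 WT libraries and 229.7, 50 and 53.7 CPM in those labelled Gata2, and Ly6g had 169.5, 163 and 40 CPM in the Week2 WT libraries and 211, 64.5 and 49.1 CPM in those labelled Gata2. Of the regulators Cebpe led per kilobase, and Cebpa was at 18, 27.5 and 11.7 CPM in the Week2 WT libraries and 33.4, 11.8 and 12.3 CPM in those labelled Gata2. No gene passed the test of genotype among the 39 or among all 36485 (0% higher, 0% lower), with 87 of all genes and 0 of the 39 at an unadjusted p under 0.05 and 1 gene of all called by DESeq2. The groups overlapped for all 39, where 0.674% of all genes were higher and 0.737% lower without overlap. The median difference was 0.03 over the 39 and 0.00065 over all genes. It was 0.36 with RLE scaling, and each library moved it: it was -1.01 without replicate 1 labelled Gata2, -0.34 without WT replicate 3 and 0.35 to 0.59 without each of the others. The spread within groups was wide. Ngp had 20022, 13407 and 5687 CPM in the Week2 WT libraries and 23099, 6556 and 4655 CPM in those labelled Gata2. Replicate 1 labelled Gata2 was the highest and its other two libraries were close to WT replicate 3, the lowest WT library. The same 3 libraries, WT replicates 1 and 2 and replicate 1 labelled Gata2, held the 3 highest values for all 39 genes after TMM scaling and for 31 without it. In the other 8 (Cebpa, Gfi1, Csf3r, Olfm4, Mmp9, Retnlg, Cxcr2 and Trem1), replicate 3 labelled Gata2 took the place of WT replicate 1. Replicate 1 labelled Gata2 was the highest for 32 genes (22 without TMM scaling). WT replicate 3 was the lowest for 27, replicate 3 labelled Gata2 for 11 and replicate 2 labelled Gata2 for 1, and these counts were 17, 2 and 20 without the scaling. The highest library exceeded the lowest by 2.86 times for Cebpa and 17.9 times for Retnlg, with a median of 6.42 times, which was 3.82 times without TMM scaling. The scaling factors ran from 0.728 to 1.432 at Week2, so the width of this spread depends on it.

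By step at Week2, of the regulators, Gfi1 had 59.7, 57.7 and 37.6 CPM in the Week2 WT libraries and 104, 41.2 and 35.7 CPM in those labelled Gata2, Csf3r 327, 788 and 94.4 CPM in the Week2 WT libraries and 639, 177 and 211 CPM in those labelled Gata2 and Cebpe 244, 151 and 71.2 CPM in the Week2 WT libraries and 360.3, 81 and 51.5 CPM in those labelled Gata2. The highest value was in replicate 1 labelled Gata2 for Gfi1 and Cebpe, and in WT replicate 2 for Csf3r. Of the primary granule genes, Ctsg had 186, 195 and 63.5 CPM in the Week2 WT libraries and 642, 84.2 and 67.3 CPM in those labelled Gata2, Prtn3 473, 466 and 164 CPM in the Week2 WT libraries and 1409.8, 204 and 168 CPM in those labelled Gata2 and Ms4a3 169, 122 and 40.9 CPM in the Week2 WT libraries and 403, 78.9 and 41.4 CPM in those labelled Gata2. All 3 were highest in replicate 1 labelled Gata2, above every WT library. Of the secondary granule genes, Camp had 6629, 3455 and 1585 CPM in the Week2 WT libraries and 5653, 1858 and 1155 CPM in those labelled Gata2, Chil3 5582, 2647 and 1407 CPM in the Week2 WT libraries and 5156, 1883 and 868 CPM in those labelled Gata2 and Orm1 28.5, 15.3 and 7.98 CPM in the Week2 WT libraries and 22.5, 8.37 and 5.18 CPM in those labelled Gata2, an acute phase protein also held in granules. These were the highest in WT replicate 1. Of the tertiary and mature genes, S100a9 had 16207, 10589 and 2810.2 CPM in the Week2 WT libraries and 16492, 4914 and 3553 CPM in those labelled Gata2, Cxcr2 179, 282 and 22.8 CPM in the Week2 WT libraries and 402, 103 and 99.4 CPM in those labelled Gata2 and Il1r2 60.3, 53.5 and 9.74 CPM in the Week2 WT libraries and 120.4, 30.6 and 20.9 CPM in those labelled Gata2. Retnlg had 1171, 2139 and 119.7 CPM in the Week2 WT libraries and 1747, 485 and 665 CPM in those labelled Gata2, with WT replicate 3 the lowest. Of the oxidase genes, Cyba had 988, 663 and 361 CPM in the Week2 WT libraries and 1162, 543 and 351 CPM in those labelled Gata2, Cybb 1389, 1031 and 467 CPM in the Week2 WT libraries and 2118, 652 and 491 CPM in those labelled Gata2 and Ncf4, the subunit p40phox, 440.4, 311 and 148 CPM in the Week2 WT libraries and 654, 203 and 166 CPM in those labelled Gata2, again with replicate 1 labelled Gata2 the highest.

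Steps also differed in their balance between Week2 libraries. Secondary granule counts per 100 primary granule counts were 1310, 653 and 821 in WT and 636, 954 and 804 under the Gata2 label, so the groups overlapped. Fcnb counts per 100 Mpo counts were 30.1, 10.8 and 14.7 in WT and 12.8, 22.3 and 11.8 under the Gata2 label. Within the primary step, the ratio of Elane to Prtn3 counts was 1.76 to 3.15 at Week2 and 1.11 to 1.64 in LSK libraries. Plppr3, which overlaps Prtn3, had 13.8 to 73.3 CPM at Week2 and 149.7 to 568 CPM in LSK libraries. Its part in this ratio was not tested. Within the secondary step, the ratio of Ltf to Ngp was 0.698 to 0.910 at Week2, 0.187 to 0.290 at Day2 and 0.0944 to 0.550 at Day0. Other cells' markers varied beside this. The 7 B-cell markers summed to 4255, 2911 and 4695 CPM in the Week2 WT libraries and 2287, 4650 and 4891 CPM in those labelled Gata2, lowest in the 2 libraries with the highest Mpo. The 8 erythroid markers summed to 1586, 16.6 and 5585 CPM in WT and 392, 1231 and 21.9 CPM under the Gata2 label, and the 10 monocyte markers to 1497 to 2262 CPM over both. T and NK markers summed to 85.6 to 333 CPM, megakaryocyte markers to 14.0 to 33.7 CPM and those of eosinophils, basophils and mast cells to 180.0 to 630.4 CPM. Every marker of these lists had a count in both Week2 groups. The part of cell composition in the spread of the granule genes was not tested.

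A further neutrophil list of 32 genes, such as adhesion, leukotriene and secretory genes, was read beside the 39. It also held transcription factors such as Runx1, Myb and Etv6, so it is a mixed list. Etv6 had 281 to 389 CPM in LSK libraries and 47.2 to 132 CPM at Week2. In WT over time 11 of the 31 tested rose and 1 fell, and under the Gata2 label 4 rose and 1 fell, with medians of 0.73 and 0.52. Over all genes 11.9% were called higher and 17.9% lower in WT, and 4.48% and 4.82% under the Gata2 label. No gene of the list passed in the 3 genotype comparisons or in the difference over time. The 3 of lowest p in WT were Csf2rb, the shared chain of the GM-CSF receptor, at 1.78 (SE 0.23, edgeR adjusted p = 0.000948), Alox5, 5-lipoxygenase, at 2.48 (SE 0.43, edgeR adjusted p = 0.00407), and Cebpb, a C/EBP factor of stress granulopoiesis, which fell, at -2.28 (SE 0.43, edgeR adjusted p = 0.0057). Under the Gata2 label the same genes had 1.05 (SE 0.21, edgeR adjusted p = 0.0142), 3.30 (SE 0.40, edgeR adjusted p = 0.00154) and -2.36 (SE 0.47, edgeR adjusted p = 0.0153).

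Some values may hold reads of other genes. Lyz2, Chil3 and Orm1 have near-identical copies, and in LSK libraries Lyz1 stayed at or under 0.405 CPM, Chil4 at or under 0.0439 CPM and Orm2 and Orm3 at or under 0.243 and 1.43 CPM, so Orm1, at or under 1.02 CPM there, is uncertain. Ly6g, Fpr1 and Fpr2 belong to families of similar genes. Annotated genes overlap Prtn3 (Plppr3, opposite strand, 149.7 to 568 CPM in LSK libraries), Ncf1 (Gtf2ird2, opposite strand, 15.3 to 97.9 CPM) and Gfi1 (A430072P03Rik, opposite strand, 1.04 to 4.47 CPM), and Itgam shares its span with Gm49368. Gm16894 (opposite strand, 0.251 to 1.497 CPM in LSK libraries) and Gm37347 (same strand, at or under 0.666 CPM there) overlap Il1r2. Il1r2 itself had 0.051 to 3.11 CPM there without TMM scaling, so its level in LSK libraries is uncertain too. Without a stated strand setting for the counting, reads of Prtn3 and Plppr3 may not be separate, nor those of Il1r2 and Gm16894.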

How the data were processed

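RNA was sequenced from 16 libraries of mouse bone marrow cells, and the authors deposited a single table of raw counts, whole numbers and a line for each Ensembl gene ID. The submitters' processing notes name Trimmomatic 0.38, STAR 2.5.2b and the genome mm10. How reads were counted, on which strand and with which annotation, is not given in the sources used here. Per the labels' protocols there were both kinds of library, stranded mRNA and low-input, without saying which sample was which. Columns were matched to samples by library name, and symbols and coordinates were taken from GENCODE M21 on GRCm38, the build also called mm10, which named 45143 of the 45706 IDs.

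The deposited counts went into edgeR 4.0.16 (R 4.3.3) after TMM scaling and filterByExpr. Its robust quasi-likelihood test was adjusted by Benjamini-Hochberg over every gene tested, and a gene was called when the adjusted p was below 0.05. A first fit held the 10 LSK libraries as 4 groups, a separate fit the 6 Week2 libraries, for 6 comparisons in all. Levels of single genes are TMM-scaled CPM; marker sums, the heatmap and levels of overlapping or copied genes are CPM of the library total without that scaling, and step shares are percentages of the raw counts. No gene set was tested: lists are described by counts and medians beside those of all genes. The procedure was tested on simulated counts. A chi-square of each pair of replicates, over genes whose counts summed to 20 or more, gave at least 28.4 per degree of freedom, so no library was taken for a copy of another. Promoter windows came from a RefSeq table (GRCm38.p6), which held 34 of the 39 genes.

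The alternatives were RLE scaling, no low count filter, DESeq2 1.42.0, a fit of only the groups compared, fits that leave out a single library, and the replicate number as a block. Values per library are given for called genes (at most the 5 of lowest p in each step and comparison), the 3 of lowest p in each step in each genotype comparison, and the leading gene per length of each step, and other genes by range and count. For most of the genotype comparisons' genes that did not pass, levels are given without a fold change. The 39 genes and all lists were chosen with earlier results of these data known.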

Additional observations from a re-analysis of the deposited data

How the results depend on the processing

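None of the 39 genes was called between genotypes at Day2 or Week2 under any alternative run. At Day0, DESeq2 called 1 gene (Mmp8), and leaving out 1 library gave counts from 0 to 19 and medians from 0.148 to 1.499, the highest of each without Day0 WT replicate 2, which leaves that group with 1 library whose spread is assumed to be that of the other groups. For the difference over time, DESeq2 called 1 gene (Trem1), and leaving out 1 library gave counts from 0 to 16 and medians from -1.53 to -0.36. The WT count over time was 10 with the compared groups alone and 12 to 22 with 1 library left out, and its median was 0.62 to 1.94 with 1 library left out. Without Day0 WT replicate 2, the WT median moved by more than the spread. That spread was the pooled SD within groups of each library's median log2(CPM + 1) over the genes. The same held in that fit for the medians of the Day0 comparison and of the difference over time. Under the Gata2 label the count over time was 14 with the compared groups alone and 3 to 14 with 1 library left out. Ngp, Chil3 and Csf3r were called in both genotypes under all 15 alternatives. Cebpa, Ltf, Cd177, S100a8, S100a9, Itgam and Anxa1 in WT, and Gfi1, Fcnb, Lcn2 and Mmp8 under the Gata2 label, each lost the call under 1 or more.

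Over all genes, the WT count over time was 5720, 1199 with the compared groups alone, 2747 with the replicate block and 3191 to 12386 with 1 library left out. Under the Gata2 label it was 1782, 5676 with the compared groups alone, 3482 with DESeq2, 745 with the block and 499 to 4863 with 1 library left out. At Day0 it was 0, 1 without the filter, 448 with DESeq2 and 0 to 8655 with 1 library left out, at Day2 22 without the filter, 169 with DESeq2, 11 with the compared groups alone and 0 to 48 with 1 library left out, and at Week2 1 with DESeq2 and 0 to 4 with 1 library left out. For the difference over time it was 0, 2 without the filter, 261 with DESeq2 and 0 to 6733 with 1 library left out, the highest without Day0 WT replicate 2.

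The numbers were not taken to pair the libraries, since not every pair of 1 number correlated above 0.1. Over 13 LSK pairs the correlations ran from -0.15 to 0.09, with 0 above 0.1, and over 3 Week2 pairs from -0.76 to 0.75, with 2 above 0.1. In LSK cells 1 of 10 and at Week2 3 of 6 libraries correlated best with their own number. With the replicate number as a block, 12 of the 39 were called in WT and 7 under the Gata2 label over time and 0 between genotypes, with 1 of all genes called at Day2 and 12 at Week2. The block ended the calls of Cd177, Itgam and Anxa1 in WT (edgeR adjusted p = 0.0505, 0.054 and 0.065) and of Fcnb under the Gata2 label (0.118), and added Ltf there (0.0379).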
